A study of Mus musculus with 144 samples.

Results

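The genes described here encode the nuclear-encoded subunits of the oxidative phosphorylation machinery. They were taken as every probe set of an Affymetrix whole-genome mouse array that was annotated with a single gene symbol starting with Ndufa, Ndufb, Ndufc, Ndufs, Ndufv, Sdh, Uqcr, Cox4 to Cox8 or Atp5, leaving out the assembly factors named Ndufaf or Sdhaf and all pseudogene symbols. The rule used gene symbols only, although it was set with earlier results of these data known. It gave 169 probe sets of 45037 and 82 genes of 18193, namely 34 genes of complex I, 4 of complex II, 8 of complex III, 18 of complex IV, 17 of complex V, and Cox7a2l, which matches by its symbol but is known as a factor that joins respiratory complexes and not as a core subunit. Ndufa4 and its paralog Ndufa4l2 were counted with complex IV, where Ndufa4 is now placed.

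Oxidative phosphorylation is the mitochondrial process that makes most of the ATP of a resting cell. Complexes I and II pass electrons from NADH and succinate to ubiquinone, complex III passes them on to cytochrome c, complex IV reduces oxygen, and complex V, the ATP synthase, uses the proton gradient that complexes I, III and IV build. Nearly all subunits are encoded in the nucleus and a few in the mitochondrial genome. Mature neutrophils hold few mitochondria and rely mainly on glycolysis, whereas lymphocytes, monocytes and dividing precursors depend more on respiration, and maturing red cells lose their mitochondria.

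The series compared mice after burn injury, after trauma-hemorrhage (tissue trauma with blood loss) or after lipopolysaccharide (LPS, a bacterial cell-wall product) with sham mice of the same model. Blood leukocytes, from cardiac puncture with the red cells lysed, and spleen cells were taken at 2 hr, 1 day, 3 day and 7 day after burn or trauma-hemorrhage and their shams, on 64 arrays for each tissue. Blood leukocytes of C57BL/6J mice were taken at 2 hr and 1 day after LPS or its sham, on 16 arrays. Each of the 36 groups held 4 arrays of individual mice, 144 in all, and the 4 arrays per group limit the precision. Every p-value rests on the spread between arrays of a group, pooled over all groups of a fit. That spread holds technical differences between arrays beside the differences between mice. The labels used here give no strain for the injured mice, no age, no genotype and no details of the injuries. For blood after trauma-hemorrhage and its sham the titles mention burn, and the model in the description was followed. The descriptions of the burn spleen arrays name trauma-hemorrhage, and there the title was followed, so the names of these arms rest on 1 of 2 conflicting labels.

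In sham mice, Ptprc, the pan-leukocyte antigen CD45, had signals of 11750 to 23020 in blood and 10660 to 22830 in spleen. S100a8, a neutrophil protein, had 16780 to 41120 in sham blood and 4017 to 31750 in sham spleen. The B cell gene Cd79a had 1305 to 6503 in sham blood and 2732 to 10390 in sham spleen, and the T cell gene Cd3d 1579 to 10080 in sham blood and 3625 to 9844 in sham spleen, so the ranges of these 3 markers overlapped between the tissues. Alas2, the erythroid enzyme of haem synthesis, had 17110 to 72510 in sham blood and 299.8 to 7167 in sham spleen. On 15 arrays, 8 of blood and 7 of spleen, the spiked hybridization controls stood at more than 2 times the median of their set, which after scaling marks a dim array. These were 3 of the 4 blood arrays at 3 day and all 4 at 7 day after trauma-hemorrhage, 3 of the 4 spleen arrays at 1 day after burn, and 5 sham arrays. Groups with dim arrays are named again beside their results.

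Promoter sequences were available for 67 of the 82 genes in the RefSeq table of build GRCm38.p6, each covering 250 bases before and 50 after the annotated start, and 15 had no entry (Atp5a1, Atp5mpl, Cox4i1, Cox4i2, Cox6a2, Cox6c, Cox8c, Ndufa2, Ndufa4l2, Ndufb9, Ndufs1, Sdhc, Uqcrb, Uqcrc2 and Uqcrq). They were searched on both strands for 4 motifs of factors known to act on respiratory genes, namely GCGCNTGCG for NRF1, CCGGAAG for GABP and other ETS proteins, AAGATGGCG for YY1 and TCAAGGTCA for the oestrogen-related receptors. No mismatch was allowed, and matches to different motifs or to both strands were allowed to overlap. The NRF1 core was found in 22 members (32.8%), against 1924 of 27025 genes with a promoter in the table (7.12%). The ETS core was found in 17 members (25.4%), against 2683 genes (9.93%). The YY1 core was found in 6 members (8.96%) and the receptor element in 2 (2.99%), against 443 genes (1.64%) and 126 genes (0.466%). At least 1 of the 4 stood in 37 members (55.2%), against 4593 genes (17%). The 27025 genes were not limited to those tested on the arrays, nor matched to the members in base composition. No test of these differences was made.

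5 of these promoters are printed 5′ to 3′ on the gene's own strand, with every motif match in capitals and the rest in lower case, because their genes carry the results that follow. Cox6b2 (chr7:4753045-4753344, minus strand) and Cox6b1 (chr7:30626065-30626364, minus strand) are the testis-type and the ubiquitous isoform of the same complex IV subunit. Cox6a1 (chr5:115348909-115349208, minus strand) and Atp5k (chr5:108434350-108434649, minus strand) rose in blood after trauma-hemorrhage, and Sdha (chr13:74350191-74350490, minus strand) had the largest falls. The Cox6b2 window held none of the 4 motifs, the Cox6b1 window held the ETS core, those of Cox6a1 and Atp5k held the NRF1 and ETS cores, and that of Sdha held the NRF1 core.
Cox6b2: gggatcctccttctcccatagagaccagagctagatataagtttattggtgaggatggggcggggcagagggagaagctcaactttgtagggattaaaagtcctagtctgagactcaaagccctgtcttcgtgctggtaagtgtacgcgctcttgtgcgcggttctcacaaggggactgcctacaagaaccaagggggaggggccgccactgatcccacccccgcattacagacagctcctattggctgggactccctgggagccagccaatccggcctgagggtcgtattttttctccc
Cox6b1: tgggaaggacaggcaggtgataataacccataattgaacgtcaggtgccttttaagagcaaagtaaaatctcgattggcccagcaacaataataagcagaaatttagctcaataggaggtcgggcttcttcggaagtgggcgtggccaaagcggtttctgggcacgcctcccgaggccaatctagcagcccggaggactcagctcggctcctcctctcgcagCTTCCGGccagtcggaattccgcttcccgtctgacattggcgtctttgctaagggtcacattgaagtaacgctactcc
Cox6a1: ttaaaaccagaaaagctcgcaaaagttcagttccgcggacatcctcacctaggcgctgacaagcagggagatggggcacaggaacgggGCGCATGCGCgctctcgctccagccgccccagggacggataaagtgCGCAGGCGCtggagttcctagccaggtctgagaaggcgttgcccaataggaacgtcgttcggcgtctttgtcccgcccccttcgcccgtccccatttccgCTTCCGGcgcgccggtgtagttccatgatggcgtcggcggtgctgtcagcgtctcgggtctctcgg
Atp5k: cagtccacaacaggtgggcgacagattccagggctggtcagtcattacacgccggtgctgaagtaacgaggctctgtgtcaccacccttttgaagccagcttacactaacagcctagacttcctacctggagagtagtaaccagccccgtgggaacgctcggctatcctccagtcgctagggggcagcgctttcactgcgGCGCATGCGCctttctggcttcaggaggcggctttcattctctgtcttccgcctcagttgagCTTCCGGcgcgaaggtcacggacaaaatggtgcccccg
Sdha: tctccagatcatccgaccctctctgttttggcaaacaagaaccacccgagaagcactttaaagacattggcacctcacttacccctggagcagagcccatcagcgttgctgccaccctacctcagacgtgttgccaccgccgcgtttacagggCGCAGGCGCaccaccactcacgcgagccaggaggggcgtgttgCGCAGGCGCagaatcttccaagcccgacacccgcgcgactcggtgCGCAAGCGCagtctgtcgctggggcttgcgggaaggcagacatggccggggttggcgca

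Signals are the deposited intensities of 1 probe set per gene. A log2 change is the injured or LPS group minus its own sham on the scale log2(signal + 32), with its standard error (SE), a fold is its linear form, and rose and fell are used only of genes with a limma p under 0.05 after adjustment over all genes tested in that comparison. A gene was tested if at least 4 arrays of its set gave it a signal above their median, which let a gene in through a single high group. 78 members were tested in injury blood (all but Cox7b2, Cox8b, Ndufa4l2 and Ndufb4), 76 in spleen (all but Cox4i2, Cox7c, Cox8b, Cox8c, Ndufa4l2 and Ndufb4) and 76 in the LPS arm (all but Cox7b2, Cox7c, Cox8b, Cox8c, Ndufa12 and Ndufb1). Counts and medians are therefore over the tested members and not over all 82.

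By count, most members were called in blood at 3 day after trauma-hemorrhage (33), in spleen at 1 day after burn (30) and in blood at 1 day after trauma-hemorrhage (16), followed by spleen at 3 day after trauma-hemorrhage (12) and blood at 1 day and spleen at 7 day after burn (11 each). The share of members that rose was 39.7% against 4.51% of all genes in the first of these, whereas in spleen at 1 day after burn 34.2% of members and 27.4% of all genes fell. In trauma-hemorrhage blood at 1 day 12.8% of members and 7.05% of all genes rose, and 7.69% and 10% fell. In trauma-hemorrhage spleen at 3 day 15.8% and 5.14% rose, and in burn spleen at 7 day 14.5% and 8.6%. In burn blood at 1 day both member shares lay below those of all genes (6.41% against 9.16% for rises, 7.69% against 16.2% for falls). At 2 hr, 3 day and 7 day after burn and at 2 hr after trauma-hemorrhage no member of 78 was called in blood by limma, with 9, 2, 5 and 5 members at an unadjusted p under 0.05. A sham array at 2 hr after trauma-hemorrhage (replicate 2) was dim. Of all genes tested, 1.71% rose and 1.13% fell at 2 hr after burn in blood, 1.06% and 0.0205% at 3 day, 1.62% and 0.321% at 7 day, and 1.97% and 1.28% at 2 hr after trauma-hemorrhage. In spleen no member of 76 was called at 2 hr or at 1 day after trauma-hemorrhage, with 1 member at an unadjusted p under 0.05 at each time, and 2.48% and 0.661% of all genes rose and 1.49% and 0.193% fell. The map of log2 changes and the bars of called shares give all 18 comparisons.

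**Figure D1:**
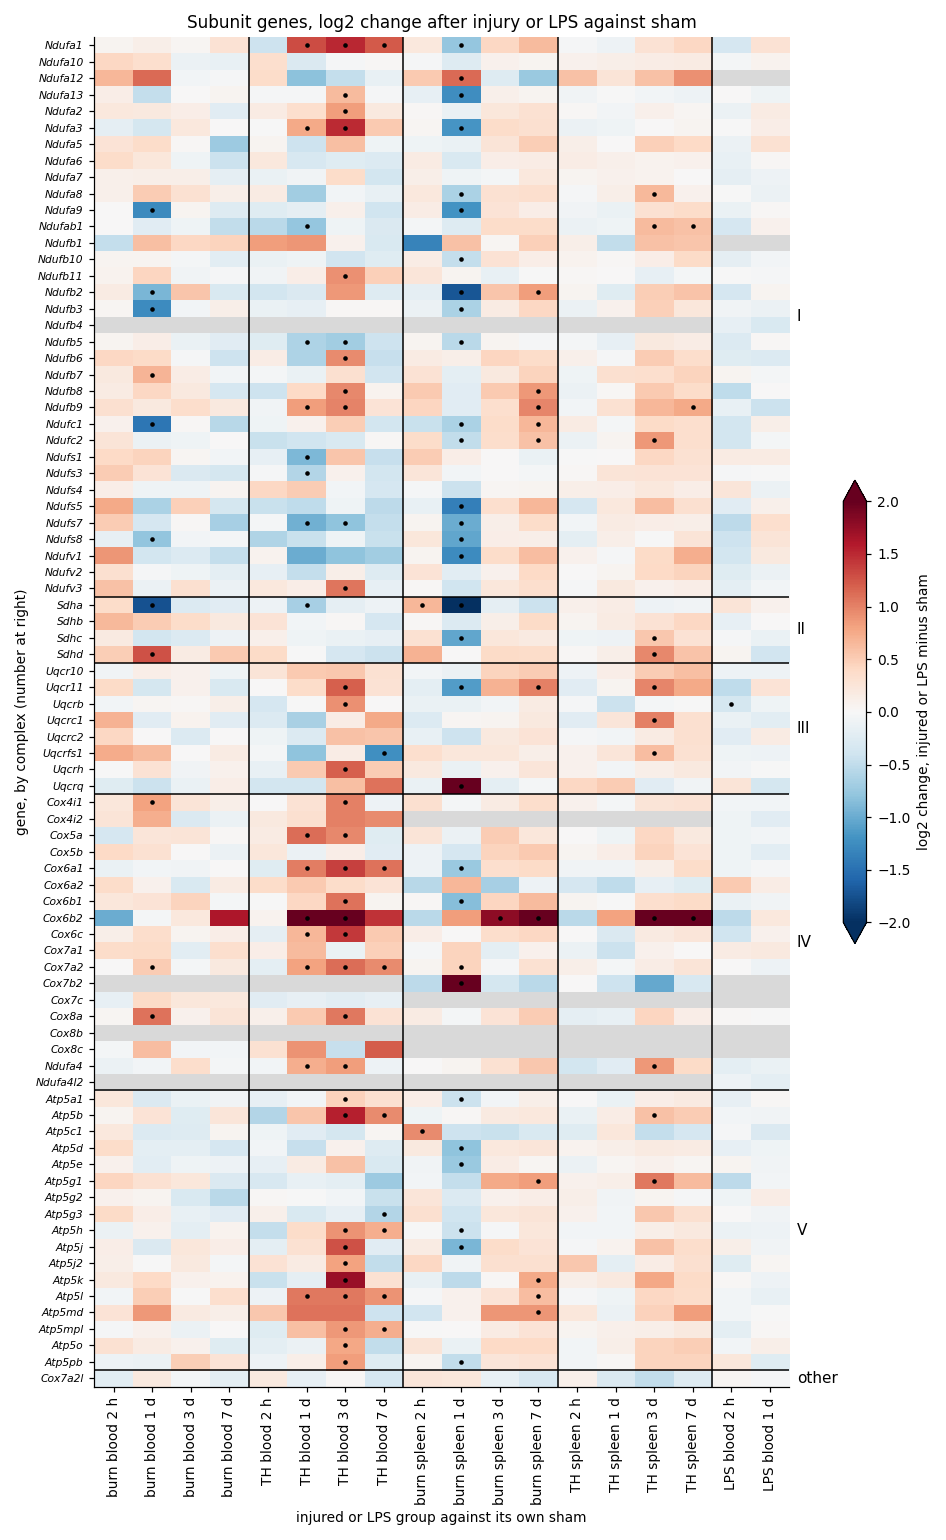
Log2 change of each member (rows, ordered by complex I to V, with Cox7a2l last) in each of the 18 comparisons of an injured or LPS group with its own sham (columns), each from 4 against 4 arrays. Colour gives the log2 change, dots mark called members, grey cells were not tested and TH stands for trauma-hemorrhage. The trauma-hemorrhage blood column at 3 day holds 31 rises and the burn spleen column at 1 day 26 falls.

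**Figure D2:**
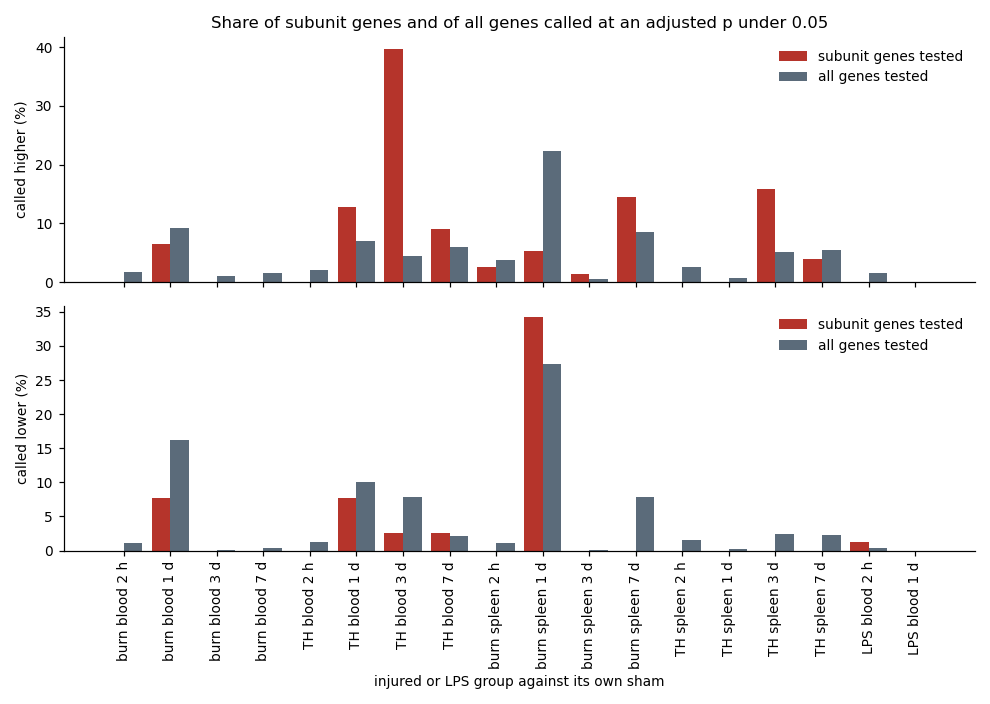
Percent of tested members and percent of all tested genes that rose or fell (limma adjusted p under 0.05) in each comparison, with TH for trauma-hemorrhage. At 3 day after trauma-hemorrhage in blood 39.7% of members and 4.51% of all genes rose.

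In blood at 3 day after trauma-hemorrhage, 31 of 78 tested members rose (39.7%) and 2 fell (2.56%), where 4.51% of all genes rose and 7.84% fell. The median log2 change of the members was 0.51 and that of all genes -0.21, and 55 of the 78 members had a positive change. The rises lay in 4 of the 5 complexes. Complex V had 10 rises among 17 members with a median of 0.81, complex IV 9 among 15 with a median of 1.01, complex III 3 among 8 with a median of 0.59, and complex I 9 rises and 2 falls among 33 with a median of 0.10. None of the 4 complex II members was called. The number of calls depended on the fit: it was 21 with quantile normalization, 16 without injured replicate 4 and 2 when only the groups compared were fitted. In bulk cell samples such as these, a change in the mix of cells and a change of RNA per cell cannot be told apart.

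Complex IV, cytochrome c oxidase, held the rise with the smallest p. Cox4i1, the ubiquitous isoform of its subunit IV, had signals of 10780, 9442, 8465 and 13460 after trauma-hemorrhage, against 4940, 4619, 5609 and 5508 in sham blood. All 4 injured arrays lay above all 4 shams, and the log2 change was 1.01 ± 0.15 (2.01-fold, limma adjusted p = 1.41e-05). The other called complex IV members were Cox6b2 (2.81), Cox6c (1.42), Cox6a1 (1.36), Cox7a2 (1.11), Cox6b1 (1.08), Cox8a (1.06), Cox5a (0.96) and Ndufa4 (0.83). Cox7a2 had 59090, 55200, 26160 and 73190 after trauma-hemorrhage, against 16320, 22310, 36130 and 22030 in sham blood, where array 3 of each group overlapped the other group. Its log2 change was 1.11 ± 0.19 (2.15-fold, limma adjusted p = 0.000151). Cox5b, which binds zinc in the same complex, had a log2 change of 0.13 with an adjusted p of 0.791. The tissue-restricted isoforms Cox4i2 (1.01, adjusted p = 0.164), Cox6a2 (0.37, adjusted p = 0.561) and Cox7a1 (-0.13, adjusted p = 0.887) did not pass.

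Complex V makes ATP in its F1 head, a ring of alpha and beta subunits around a gamma shaft. Atp5b, the catalytic beta subunit, had 18210, 13380, 6445 and 29930 after trauma-hemorrhage, against 3478, 4646, 8278 and 4558 in sham blood, and injured array 3 lay under sham array 3. Its log2 change was 1.56 ± 0.28 (2.95-fold, limma adjusted p = 0.000237). Atp5a1, the alpha subunit, changed by 0.46 (adjusted p = 0.0462), and Atp5c1, the gamma subunit, had a log2 change of -0.35 (adjusted p = 0.418), with signals of 400.2, 287.2, 369.6 and 422.6 after trauma-hemorrhage, against 539.8, 329.5, 527.2 and 535.4 in sham blood. The difference between these subunits was not tested. Atp5k, the small membrane subunit e, rose by 1.73 ± 0.32, with 8965, 3177, 4350 and 15470 after trauma-hemorrhage, against 1354, 1160, 2807 and 3448 in sham blood, where injured array 2 lay under sham array 4. The 3 genes of the c ring, Atp5g1 (-0.19), Atp5g2 (-0.06) and Atp5g3 (-0.16), were not called.

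In complex I the small accessory subunits and the catalytic core differed in their counts. Of 27 tested accessory members 9 rose and 1 fell (median log2 change 0.32), and of the 6 core members, Ndufs1, Ndufs3, Ndufs7, Ndufs8, Ndufv1 and Ndufv2, none rose and 1 fell (median -0.00); no test was made between these groups of genes. Ndufa3, an accessory subunit, had 15280, 11340, 10420 and 12660 after trauma-hemorrhage, against 4732, 2510, 5828 and 5130 in sham blood. The groups did not overlap, and the log2 change was 1.49 ± 0.23 (2.82-fold, limma adjusted p = 3.97e-05). Ndufs7, a core subunit that carries an iron-sulfur cluster, had 2110, 3293, 3195 and 2171 after trauma-hemorrhage, against 5214, 4259, 4082 and 5001 in sham blood. It fell by 0.80 ± 0.28 on the log2 scale (1.74-fold lower, adjusted p = 0.0469), with no overlap. Ndufb5, an accessory subunit, also fell (-0.69, adjusted p = 0.0295).

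In complex III the hinge protein Uqcrh had 22120, 17470, 9970 and 30200 after trauma-hemorrhage, against 5960, 6785, 12370 and 8367 in sham blood. It rose by 1.20 ± 0.22 (2.29-fold, limma adjusted p = 0.00024), although array 3 of each group crossed over. Uqcr11 (1.19) and Uqcrb (0.91) rose too, while Uqcrc1, a core protein, and Uqcrfs1, the Rieske iron-sulfur protein, each had a log2 change of 0.15 and were not called. In complex II, Sdha, the flavoprotein that oxidises succinate, and Sdhb, its iron-sulfur partner, had changes of -0.18 and 0.02 with adjusted p of 0.554 and 0.975.

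Array brightness moved with this result. The control level was 13492, 15456, 5556 and 16792 on the injured arrays, against 4947, 7518, 9529 and 6929 on the shams. Injured array 3 was the only one of the injured arrays that was not dim. It was also the lowest of its group in Ndufa3, Uqcrh, Cox4i1, Cox7a2, Cox6b2 and Atp5b. With the control level as a covariate, 23 of the 33 calls held, among them Cox4i1 at 1.04, Ndufa3 at 1.46, Atp5b at 0.95 and Cox6b2 at 1.86. Without the dim arrays a single injured array was left, none of the 33 calls passed, 32 kept their sign, and the median of the members was 0.3 with 63 of 78 positive. Within the first hybridization day 19 of the 33 passed with all 33 of the same sign, and within the second day, which held arrays 3 and 4, none passed with all 33 of the same sign. The 3' to 5' signal ratio of Gapdh, a sign of RNA integrity, was 1.75 to 2.34 after trauma-hemorrhage and 2.35 to 3.72 in sham blood, and with it as a covariate 32 members rose and 2 fell. The members' mean log2 level was 11.354, 11.101, 11.055 and 11.513 on the injured arrays, against 10.704, 10.556, 10.942 and 10.912 on the shams, so injured array 3, the lowest of its group in this mean too, still lay above all 4 shams. The plot of signals by array marks the dim arrays for 7 members.

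**Figure D3:**
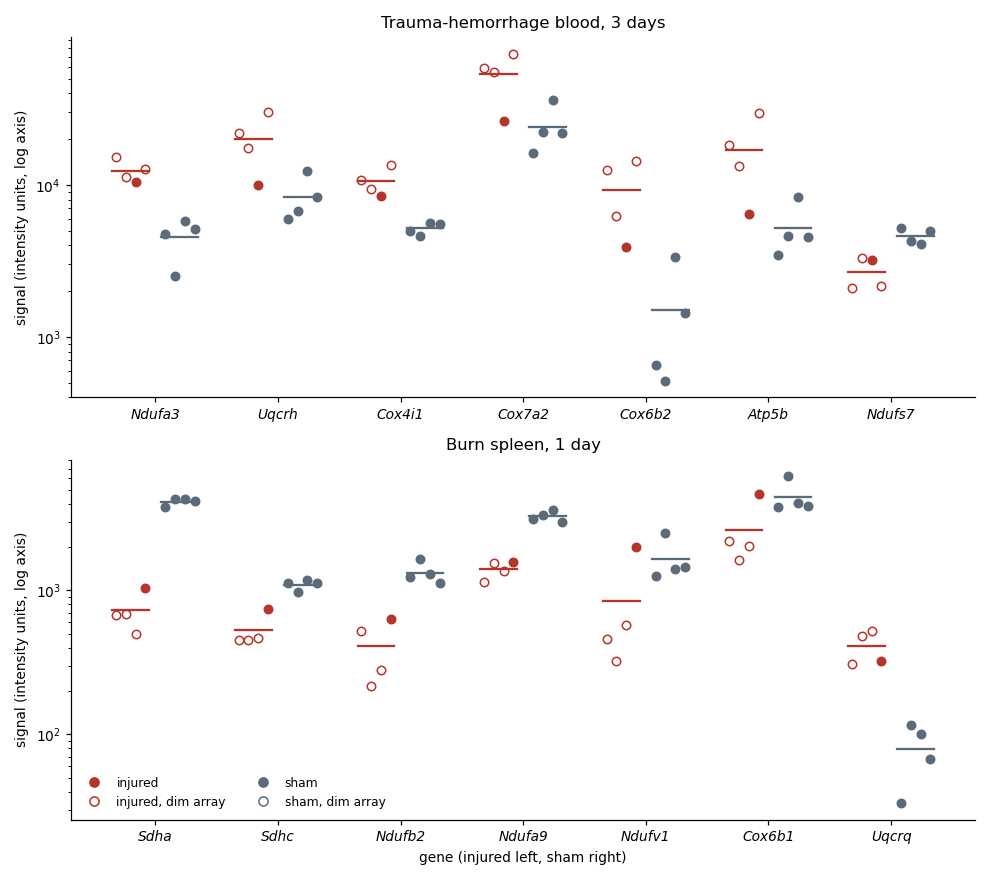
Signal on each array (log axis) of the named subunit genes in blood at 3 day after trauma-hemorrhage (upper panel) and in spleen at 1 day after burn (lower panel), injured left and sham right, with open circles for dim arrays and bars for the means. In the upper panel the single injured array that is not dim is the lowest of the 4 for every gene shown except Ndufs7. For Sdha all injured arrays lie between 500.1 and 1039 in the lower panel, below shams of 3770 to 4327.

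Lists of other mitochondrial genes held few rises at 3 day. Of 44 tested assembly factors, which build the complexes but stay out of them, 1 rose and 4 fell (median -0.43), with Pet100, which helps build complex IV, at 1.59 and the complex I factor Ndufaf4 at -2.23. Of 75 mitochondrial ribosomal protein genes 1 rose and 8 fell (median -0.55), of 15 genes of the citric acid cycle 0 rose and 3 fell (median -0.39), and of 14 regulators of mitochondrial biogenesis 0 rose and 1 fell (median -0.57). Among 16 electron carriers and nucleotide transporters 2 rose and 2 fell (median -0.32), and Atpif1, the inhibitor that keeps complex V from running backwards, rose by 1.51 ± 0.27 (adjusted p = 0.000175). Of 47 genes of cytosolic ribosomal proteins 2 rose and none fell (median 0.09). Marker genes of other blood cells moved in the same samples. Of 22 erythroid markers 14 rose (median 1.44), with summed signals of 142200 to 535300 after trauma-hemorrhage and 79450 to 269500 in sham blood, and of 16 platelet markers 9 rose (median 1.12), with sums of 245800 to 413900 after trauma-hemorrhage and 126300 to 220700 in sham blood. Of 13 mature neutrophil markers 6 rose (median 0.98), with sums of 116400 to 178500 after trauma-hemorrhage and 65530 to 82340 in sham blood, and of 12 immature neutrophil granule markers 4 rose (median 1.19). Of 14 T cell markers 4 fell (median -0.75), of 14 B cell markers 2 fell (median -0.71), and none of 13 monocyte and macrophage markers was called (median -0.73). The part of these cell types in the members' rise was not tested.

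At 1 day after trauma-hemorrhage, blood held 10 rises (12.8%) and 6 falls (7.69%) among 78 members, where 7.05% of all genes rose and 10% fell. Cytochrome c oxidase accounted for most of the rises, with 6 of its 15 tested members higher, none lower and a median of 0.64. Cox5a, a subunit on the matrix side, had 11860, 7905, 10610 and 13510 after trauma-hemorrhage, against 8624, 2978, 5286 and 4475 in sham blood. The first sham array overlapped the second injured array, and the log2 change was 1.11 ± 0.25 (2.16-fold, limma adjusted p = 0.00148). Cox6a1 (1.03), Cox7a2 (0.81), Ndufa4 (0.73) and Cox6c (0.66) rose without overlap of the groups. Ndufa1 (1.31, adjusted p = 0.00634) and Atp5l (1.06, adjusted p = 0.00736), small membrane subunits of complexes I and V, rose as well.

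The falls at 1 day lay mostly in complex I, where 3 of the 6 core members fell and none rose (median -0.74) and 3 of 27 accessory members rose and 2 fell (median -0.13). Ndufs1, the large iron-sulfur subunit that takes electrons onward within complex I, had 577.7, 506.4, 600.1 and 521.1 after trauma-hemorrhage, against 1280, 816.8, 962 and 1237 in sham blood. The injured arrays all lay below the shams and hardly differed among themselves, with a log2 change of -0.90 ± 0.22 (1.87-fold lower, adjusted p = 0.00325). The core subunits Ndufs7 (-0.96) and Ndufs3 (-0.58), the acyl carrier protein Ndufab1 (-0.78), the accessory subunit Ndufb5 (-0.61) and Sdha of complex II (-0.66, adjusted p = 0.00566) also fell. The control level was 9184 to 10826 after trauma-hemorrhage and 5680 to 7012 in sham blood, without overlap, and the Gapdh 3' to 5' ratio was 1.66 to 2.54 after trauma-hemorrhage and 2.51 to 3.31 in sham blood. With the control level as a covariate, 8 of the 16 calls held, all 16 with the same sign, and within a single hybridization day 3 and 1 held. Of the other mitochondrial lists, 16 of 75 mitochondrial ribosomal protein genes fell and none rose (median -0.45), 7 of 44 assembly factors fell and 1 rose, and 5 of 15 genes of the citric acid cycle fell, with fumarase Fh1 at -1.34. Of 16 platelet markers 15 rose (median 1.72; sums of 293600 to 337200 after trauma-hemorrhage and 95780 to 151400 in sham blood), 15 of 22 erythroid markers rose (median 1.68; 170500 to 270500 after trauma-hemorrhage and 80740 to 142300 in sham blood), and 11 of 14 B cell markers fell (median -1.25; 13610 to 72190 after trauma-hemorrhage and 83860 to 95280 in sham blood). The part of these cell types was not tested.

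At 7 day after trauma-hemorrhage 7 members rose (8.97%) and 2 fell (2.56%) in blood, where 5.98% of all genes rose and 2.11% fell, and the median of the members was -0.15 against 0.06 for all genes. Cox7a2 had 32190, 28730, 46350 and 36060 after trauma-hemorrhage, against 15460, 21340, 17570 and 19580 in sham blood, with no overlap and a log2 change of 0.94 ± 0.19 (1.92-fold, limma adjusted p = 0.00122). Ndufa1 (1.23), Cox6a1 (1.08), Atp5b (0.94), Atp5l (0.90), Atp5h (0.73) and Atp5mpl (0.73) rose too. Uqcrfs1 had 830.5, 1080, 80.37 and 839.8 after trauma-hemorrhage, against 1179, 1206, 1256 and 1460 in sham blood. Its injured array 3 stood far below the other 3, and the log2 change was -1.23 ± 0.33 (2.35-fold lower, adjusted p = 0.0132). All 4 injured arrays at this time were dim, and with the control level as a covariate none of the 9 calls passed, nor did any other gene, and Atp5b and Atp5h changed sign. On leaving out single replicates the count ran from 1 to 14 (14 without injured replicate 2, 1 without injured replicate 3 and 4 without sham replicate 1). ND5, the single mitochondrially encoded subunit among the array's symbols and not one of the members, had 31840 to 37620 after trauma-hemorrhage and 15980 to 21100 in sham blood on these arrays, a rise of 0.88 ± 0.18 (limma adjusted p = 0.00137). It was also called in spleen at 1 day after burn (1.20 ± 0.28, adjusted p = 0.000341), with 20970 to 65460 after burn and 16320 to 21010 in sham spleen, where 3 of the 4 injured arrays were dim, and in none of the other 16 comparisons. Of 22 erythroid markers 13 rose (median 1.66; 292300 to 634400 after trauma-hemorrhage and 79200 to 143100 in sham blood), and 14 of 47 cytosolic ribosomal protein genes rose and 1 fell (median 0.27).

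After burn, 5 members rose (6.41%) and 6 fell (7.69%) in blood at 1 day, both shares below those of all genes, of which 9.16% rose and 16.2% fell. The 2 ends of the list belonged to complex II, the only respiratory complex that is also an enzyme of the citric acid cycle. Sdha had 966.4, 850.6, 1194 and 838.8 after burn, against 3088, 3088, 3449 and 3530 in sham blood, and fell by 1.75 ± 0.17 on the log2 scale (3.37-fold lower, limma adjusted p = 3.19e-12). Sdhd, which anchors the complex in the membrane, had 2623, 2643, 3045 and 3679 after burn, against 1040, 1085, 1345 and 1427 in sham blood, a rise of 1.27 ± 0.27 (2.41-fold, adjusted p = 0.000238). Neither gene's groups overlapped, and Sdhb did not pass (0.51, adjusted p = 0.133). A further Sdha probe set, of a type that can cross-hybridize, gave -2.04, another gave 0.21 ± 0.46, and a further one was too dim to be tested, so the probe sets of this gene did not all show the fall.

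The other falls at 1 day after burn were in complex I. Ndufb3 had 345.4, 500, 345.8 and 460.4 after burn, against 1181, 1192, 1127 and 680 in sham blood, and fell by 1.26 ± 0.22 on the log2 scale (2.39-fold lower, limma adjusted p = 5.16e-06) without overlap. Ndufc1 (-1.44), Ndufa9 (-1.28), Ndufb2 (-0.92) and the core subunit Ndufs8 (-0.79) fell too, while the accessory subunit Ndufb7 rose (0.68). In complex IV, Cox8a, a small membrane subunit, had 1509, 1892, 1775 and 1491 after burn, against 782.8, 790.4, 605.9 and 886.9 in sham blood. It rose by 1.09 ± 0.22 (2.13-fold, adjusted p = 5.56e-05), and Cox4i1 (0.80, adjusted p = 2.39e-05) and Cox7a2 (0.50) rose beside it. No array of this comparison was dim, and all 11 calls held with the control level as a covariate. Of 44 assembly factors 2 rose and 14 fell (median -0.37), among them Nubpl (-2.18), which delivers iron-sulfur clusters to complex I, Sdhaf4 (-2.07), which helps to assemble Sdha, and Surf1 (-1.45), which builds complex IV. Of 15 genes of the citric acid cycle 1 rose and 5 fell, with Ogdh, the E1 part of oxoglutarate dehydrogenase, at -1.53. Cell markers moved in the same samples: 12 of 14 B cell markers fell (median -2.69; sums of 18220 to 21800 after burn and 82260 to 92960 in sham blood), as did 9 of 14 T cell markers (median -1.15; 19870 to 28460 after burn and 52080 to 59400 in sham blood) and 8 of 9 NK cell markers (median -2.18). Of 13 mature neutrophil markers 6 rose (median 0.96; 125800 to 156500 after burn and 52440 to 92560 in sham blood), as did 7 of 12 immature neutrophil granule markers (median 2.04). Their part in the members' changes was not tested.

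In spleen at 1 day after burn, 26 of 76 members fell (34.2%) and 4 rose (5.26%), where 27.4% of all genes fell and 22.3% rose. The share of falls was near that of all genes and the share of rises lay below it, and the median log2 change was -0.26 for members and 0.01 for all genes. Complex I had 15 falls and 1 rise among 33 members (median -0.40), complex V 6 falls among 17 (median -0.42), complex II 2 falls among 4 (median -0.66), complex III 1 fall and 1 rise among 8, and complex IV 2 falls and 2 rises among 13 (median -0.00). Of the 6 core members of complex I 3 fell, and of its 27 accessory members 12 fell and 1 rose.

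Sdha had 680.3, 687.5, 500.1 and 1039 after burn, against 3770, 4327, 4323 and 4165 in sham spleen. This was the largest fall of a member in any of the 18 comparisons, with a log2 change of -2.50 ± 0.20 (5.67-fold lower, limma adjusted p = 8.58e-16). The probe set that can cross-hybridize gave -2.23 and the dimmer one that could be tested 0.12 ± 0.35, the same split as in blood. Sdhc, the other membrane anchor of complex II, had 454.4, 455.4, 465.8 and 741 after burn, against 1121, 971.9, 1181 and 1119 in sham spleen, a fall of 1.04 ± 0.17 on the log2 scale (2.05-fold lower, adjusted p = 1.26e-06). Sdhb (-0.27, adjusted p = 0.235) did not pass. In complex I, Ndufb2 had 524.3, 216, 281.2 and 634.2 after burn, against 1236, 1652, 1297 and 1132 in sham spleen, and fell by 1.71 ± 0.25 on the log2 scale (3.27-fold lower, adjusted p = 1.16e-07). Ndufa9, which holds an NADPH in the peripheral arm, had 1140, 1557, 1373 and 1583 after burn, against 3140, 3327, 3646 and 3000 in sham spleen, and fell by 1.20 ± 0.18 on the log2 scale (2.30-fold lower, adjusted p = 2.23e-07). None of these genes' groups overlapped. Ndufs5 (-1.36), Ndufa13 (-1.25) and Ndufv1, the NADH-binding core subunit (-1.26, adjusted p = 0.000729), fell as well, although injured array 4 of Ndufv1, at 2012, lay above 3 of the 4 shams.

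Against this direction, Uqcrq, the ubiquinone-binding subunit of complex III, had 309.1, 482.8, 522.6 and 324.4 after burn, against 33.16, 116.4, 100.3 and 67.78 in sham spleen. It rose by 2.02 ± 0.38 (4.06-fold, limma adjusted p = 1.83e-05) without overlap, but 3 of the 4 sham signals lay below their array's median, so the size of this change is uncertain, and another of its probe sets had the opposite sign. The log2 change was 2.46 at a pseudocount of 1, 1.51 at 100 and 0.84 with the mean of its probe sets. Cox7b2, an isoform best known from testis, rose by 2.06 ± 0.52 (limma adjusted p = 0.000865) at low signals. These were 357.6, 411.7, 628.2 and 78.58 after burn, against 69.78, 47.98, 102.5 and 5.698 in sham spleen. All 4 shams and the injured array at 78.58 lay below their array's median, and the groups overlapped. The call was lost with the control level as a covariate and within the second hybridization day. Cox7a2 (0.45) rose too. Ndufa12 was called (1.14, adjusted p = 0.0352) from a probe set with signals of 131.9, 62.2, 206.4 and 109.5 after burn, against 39.52, 36.91, 13.57 and 65.69 in sham spleen, where 3 of the injured and all 4 sham arrays lay below their array's median, and the mean of its 4 probe sets gave -0.04. In complex V, Atp5j (-0.91), Atp5d (-0.81), Atp5e (-0.74), Atp5pb (-0.49), Atp5h (-0.43) and Atp5a1 (-0.43) fell, whereas Atp5b had a log2 change of 0.02 (adjusted p = 0.927).

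Of these 4 injured spleen arrays 3 were dim, with control levels of 17670, 19515, 24538 and 5491 after burn, against 5109 to 6355 on the shams. The members' mean log2 level was 10.63, 10.419, 10.595 and 11.167 after burn, against 10.904, 11.183, 10.945 and 10.928 in sham spleen, so the array that was not dim lay within the shams. Without the dim arrays a single injured array was left, whose spread was taken from the other groups. In that fit Sdha (-1.96), Ndufa9 (-1.03), Ndufb2 (-1.02), Ndufc1 (-0.84) and Uqcrq (1.75) were still called, 5 of 30, while 19 of the 30 kept their sign and the median of the members was 0.26. With the control level as a covariate 12 held, all 30 with the same sign. Within the first hybridization day 28 held, and within the second 6 held, among them Sdha at -2.50 and Uqcrq at 1.95. Lymphocyte markers fell in the same samples: 12 of 14 B cell markers (median -1.69; sums of 40010 to 43310 after burn and 88520 to 100900 in sham spleen), 11 of 14 T cell markers (median -1.13; 31240 to 38780 after burn and 58500 to 60290 in sham spleen) and 8 of 9 NK cell markers (median -2.22). Of 13 monocyte and macrophage markers 7 fell (median -0.99; 12040 to 29960 after burn and 30820 to 35560 in sham spleen). Their part in the members' falls was not tested.

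Related genes in this comparison moved both ways. Of 44 assembly factors 6 rose and 16 fell (median -0.45), with Coa3 (-2.53) and Pet100 (-1.87) of complex IV assembly and Sdhaf2 (-2.17), which attaches the flavin to Sdha, among the falls. Of 15 genes of the citric acid cycle 2 rose and 8 fell (median -0.43), with Ogdh at -2.59. Of 75 mitochondrial ribosomal protein genes 10 rose and 33 fell (median -0.41), and of 47 cytosolic ribosomal protein genes 25 rose and 2 fell (median 0.44). Among 14 biogenesis regulators 4 rose and 3 fell, with the coactivator Ppargc1a at 1.35 and the mitochondrial RNA polymerase Polrmt at -1.46.

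Spleen at 2 hr after burn held 2 rises (2.63%) and no fall, where 3.8% of all genes rose and 1.11% fell. Atp5c1, the gamma subunit, had 1170, 1372, 1195 and 1223 after burn, against 687.7, 598.7, 499.2 and 739.2 in sham spleen, with no overlap and a log2 change of 0.95 ± 0.25 (1.93-fold, limma adjusted p = 0.0154). Sdha rose by 0.66 ± 0.20 (limma adjusted p = 0.0417) at this time, opposite to its fall at 1 day. A further Sdha probe set had the opposite sign at 2 hr and another had the same sign, so the probe sets of this gene did not all show the rise. Of the shams 2 were dim, and neither call held without the dim arrays.

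Later in spleen no member fell after either injury. At 3 day after trauma-hemorrhage 12 of 76 rose (15.8%) and none fell, where 5.14% of all genes rose and 2.41% fell, with a median of 0.32 for members and -0.08 for all genes and 66 members positive. At 7 day after trauma-hemorrhage 3 rose (3.95%) and none fell, where 5.52% rose and 2.29% fell, with a median of 0.31 for members and -0.05 for all genes and 66 positive, so the share called was below that of all genes. At 7 day after burn 11 rose (14.5%) and none fell, where 8.6% rose and 7.79% fell, with a median of 0.30 for members and -0.05 for all genes and 65 positive. At 3 day after burn, with a dim array among the shams (replicate 2), only Cox6b2 rose and none fell, where 0.483% and 0.0668% of all genes did, and the median was 0.21 for members and -0.05 for all genes with 62 positive.

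At 3 day after trauma-hemorrhage every complex contributed to the rises in spleen, with 3 members of complex I, 2 of II, 3 of III, 2 of IV and 2 of V. Uqcrc1, a core protein of complex III, had 653, 830.2, 749.2 and 1786 after trauma-hemorrhage, against 458.4, 448.9, 358.7 and 513.8 in sham spleen, a rise of 1.01 ± 0.22 (2.02-fold, limma adjusted p = 0.00185). Ndufc2 of complex I had 2168, 2619, 2448 and 3196 after trauma-hemorrhage, against 1165, 1593, 1224 and 1739 in sham spleen, a rise of 0.86 ± 0.20 (1.81-fold, adjusted p = 0.00321). Neither gene's groups overlapped. Atp5g1 of the c ring (1.06, adjusted p = 0.00499), Uqcr11 (0.97), Sdhd (0.96), Ndufa4 (0.87, adjusted p = 0.00354), Ndufa8 (0.65), Ndufab1 (0.63), Uqcrfs1 (0.62), Atp5b (0.59) and Sdhc (0.54) rose too. All 12 calls held with the control level as a covariate, 7 held within the first hybridization day and none within the second, all with the same sign. Leaving out single replicates gave 5 to 11 calls (7 and 5 when injured array 2 or 4 was omitted, 7 and 6 when sham array 2 or 3 was). Among the carriers, 6 of 17 rose and none fell (median 0.42), including cytochrome c Cycs (1.03), the outer-membrane channel Vdac1 (1.05) and Atpif1 (1.22), and 12 of 75 mitochondrial ribosomal protein genes rose and none fell (median 0.41).

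At 7 day after burn the rises in spleen were Cox6b2 and 10 members with changes of 1.00 or less. Uqcr11, a small subunit of complex III, had 1009, 1100, 1118 and 653.1 after burn, against 511.5, 499.1, 448.4 and 390.3 in sham spleen, a rise of 1.00 ± 0.27 (2.00-fold, limma adjusted p = 0.00556). Ndufb9 of complex I had 1828, 1495, 2109 and 1178 after burn, against 701.3, 763.7, 761.8 and 1010 in sham spleen, a rise of 0.98 ± 0.24 (1.98-fold, adjusted p = 0.00233). The groups did not overlap for either gene. The others were Atp5md (0.89), Ndufb8 (0.86), Atp5g1 (0.83), Ndufb2 (0.83), Atp5k (0.76), Ndufc1 (0.67), Atp5l (0.62) and Ndufc2 (0.59). All 11 calls held with the control level as a covariate, 10 within the first hybridization day and only that of Cox6b2 within the second. Leaving out single replicates gave 5 to 15 calls (7, 6 and 5 when burn array 1, 2 or 3 was omitted, 6 and 7 when sham array 2 or 4 was). Atpif1 rose by 2.33 ± 0.33 (adjusted p = 3.94e-07), Cycs by 0.83 and Vdac1 by 0.79. At 7 day after trauma-hemorrhage Cox6b2, Ndufb9 (0.75, adjusted p = 0.0446) and Ndufab1 (0.59, adjusted p = 0.0409) rose. Sham replicate 2 of that comparison was dim, and without it Ndufab1 was not called (0.45, adjusted p = 0.0892). Ndufb9 and Ndufab1 each missed the threshold or turned sign in 11 and 12 of 21 other settings, and the count ran from 1 to 13 as single replicates were left out (13 without injured replicate 3, 11 without sham replicate 4 and 1 without any other).

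Cell markers moved in the same spleens. Of 21 tested erythroid markers 10 rose at 3 day (median 1.78; sums of 74900 to 116800 after trauma-hemorrhage and 24580 to 80160 in sham spleen) and 20 at 7 day after trauma-hemorrhage (median 3.28; 95830 to 234700 after trauma-hemorrhage and 24250 to 70120 in sham spleen), and 21 at 7 day after burn (median 4.11; 116500 to 180800 after burn and 12100 to 24150 in sham spleen). Of 20 cell cycle genes 19 rose in each of these 3 comparisons (medians 1.69, 1.89 and 2.46). All 12 immature neutrophil granule markers rose at 7 day after burn (median 4.92; 63720 to 85350 after burn and 1917 to 4384 in sham spleen), and 13 of 14 B cell markers fell (median -0.78). At 7 day after trauma-hemorrhage 11 of 12 granule markers rose (median 2.83), with sums of 39550 to 89970 after trauma-hemorrhage and 2457 to 99140 in sham spleen that overlapped, and 10 of 14 B cell markers fell. At 3 day after trauma-hemorrhage 2 of 12 granule markers rose, and 4 of 14 B cell and 10 of 14 T cell markers fell. Their part in the members' rises was not tested.

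Cox6b2 rose in 6 comparisons, against 5 for Cox7a2, the next member. It encodes an isoform of a small complex IV subunit on the intermembrane side, known mainly from testis, and it was measured by a single probe set. In spleen at 7 day it had 972.2, 923.5, 1499 and 391.4 after burn, against 36.42, 20.85, 81.8 and 36.63 in sham spleen, a rise of 3.61 ± 0.44 (12.2-fold, limma adjusted p = 2.91e-08) without overlap. All 4 of these shams lay below their array's median, so the size depended on the pseudocount, with log2 changes of 4.42 at a pseudocount of 1 and 2.76 at 100. In spleen at 3 day it had 815.5, 359.2, 336.4 and 567.4 after burn, against 59.25, 222.6, 152.5 and 87.63 in sham spleen (1.79 ± 0.44, 3.46-fold, adjusted p = 0.0345). This call was lost in 8 of 21 other settings, among them a pseudocount of 1 (adjusted p = 0.127), quantile normalization (adjusted p = 0.0697) and leaving out any of 5 replicates (injured 1, 2 and 4 and sham 1 and 4), and without it Cox6b2 and Cox7a2 would each have 5 rises. After trauma-hemorrhage it had 941.2, 941.6, 587.9 and 1083 at 3 day, against 279.4, 122.7, 80.86 and 251.8 in sham spleen (2.18 ± 0.44, 4.54-fold, adjusted p = 0.00062). At 7 day it had 1031, 1219, 810.5 and 854.2 after trauma-hemorrhage, against 150.3, 179.3, 85.13 and 480.1 in sham spleen (2.19 ± 0.44, 4.55-fold, adjusted p = 0.000458). The groups did not overlap in any of these 4 comparisons.

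**Figure D4:**
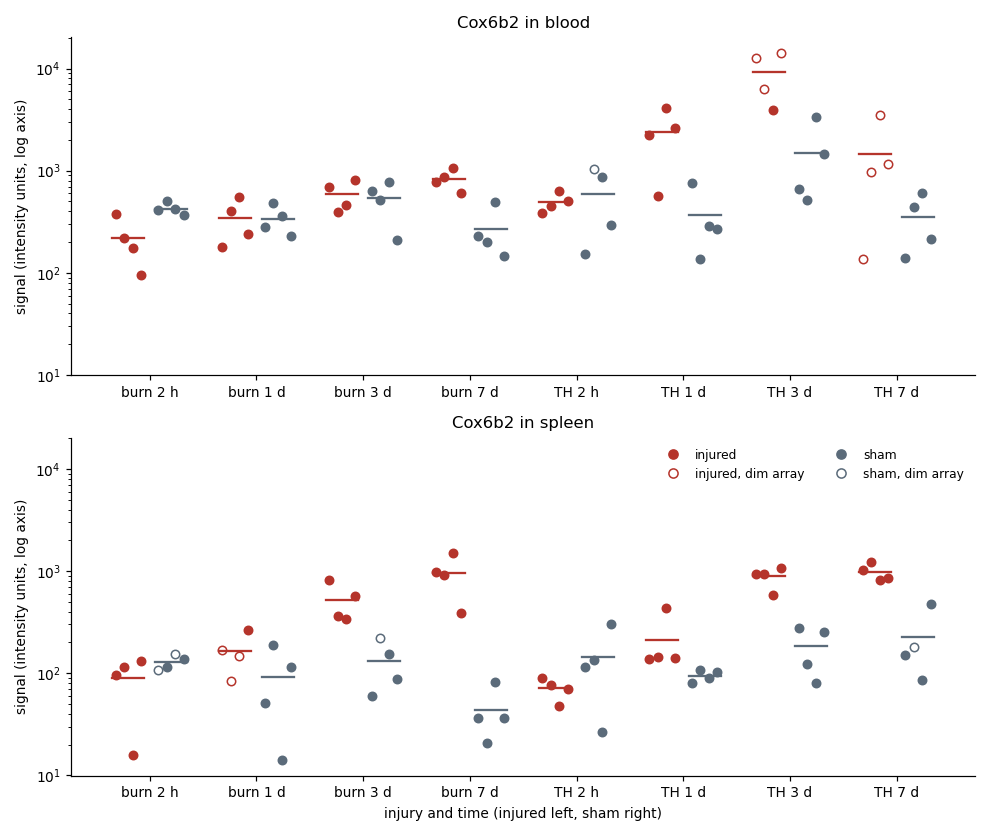
Cox6b2 signal on each array (log axis), injured groups left of their shams, by model, tissue and time. The burn spleen arrays at 7 day lie between 391.4 and 1499 and their shams between 20.85 and 81.8.

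In blood Cox6b2 rose at 1 and 3 day after trauma-hemorrhage, and its effect was not shown to differ between the times (F test in limma, adjusted p = 0.0621). At 1 day it had 2260, 563, 4079 and 2619 after trauma-hemorrhage, against 764.6, 137.3, 288 and 269.3 in sham blood, with the second injured array below the first sham (2.54 ± 0.59, 5.81-fold, limma adjusted p = 0.00184). At 3 day it had 12610, 6266, 3891 and 14320 after trauma-hemorrhage, against 657.2, 512.1, 3367 and 1441 in sham blood, with no overlap (2.81 ± 0.59, 6.99-fold, adjusted p = 0.0013). At 7 day the signals were 137.6, 975.2, 3491 and 1169 after trauma-hemorrhage, against 139.4, 442.4, 608.5 and 214 in sham blood (1.45, adjusted p = 0.104). Burn blood at 7 day had 767.8, 871.1, 1065 and 608.2 after burn, against 227.3, 201.5, 492 and 145 in sham blood, which did not overlap but missed the threshold (1.62, adjusted p = 0.168). Over all 32 sham arrays of a tissue, Cox6b2 had a lowest, median and highest signal of 137.3, 417.1 and 3367 in blood and of 14.02, 110.9 and 480.1 in spleen.

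Its ubiquitous counterpart Cox6b1 did not follow it in spleen. The log2 changes of Cox6b1 were 0.63 (limma adjusted p = 0.106) at 7 day after burn and 0.33 and 0.38 at 3 and 7 day after trauma-hemorrhage. Cox6b1 fell by 0.85 on the log2 scale at 1 day after burn. In blood at 3 day after trauma-hemorrhage both rose. Of the other tissue-restricted isoforms, Cox4i2 (not tested in spleen), Cox6a2 and Cox7a1 were called against sham in no comparison where they were tested, Cox7b2 rose in spleen at 1 day after burn as given above, and Cox8b was never tested. Cox6a2 was called in the F test of the times in burn spleen (adjusted p = 0.0337). The Cox6b2 changes lay beside those of erythroid markers: at 7 day 21 of 21 rose after burn in spleen and 20 of 21 after trauma-hemorrhage, while at 3 day after burn, when Cox6b2 rose, none of 21 was called (median 0.80). In blood at 7 day after trauma-hemorrhage 13 of 22 erythroid markers rose and Cox6b2 was not called. The plot of both quantities over the comparisons shows this as a description only, since groups of 1 tissue share a fit and the part of erythroid cells in the Cox6b2 change was not tested.

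**Figure D5:**
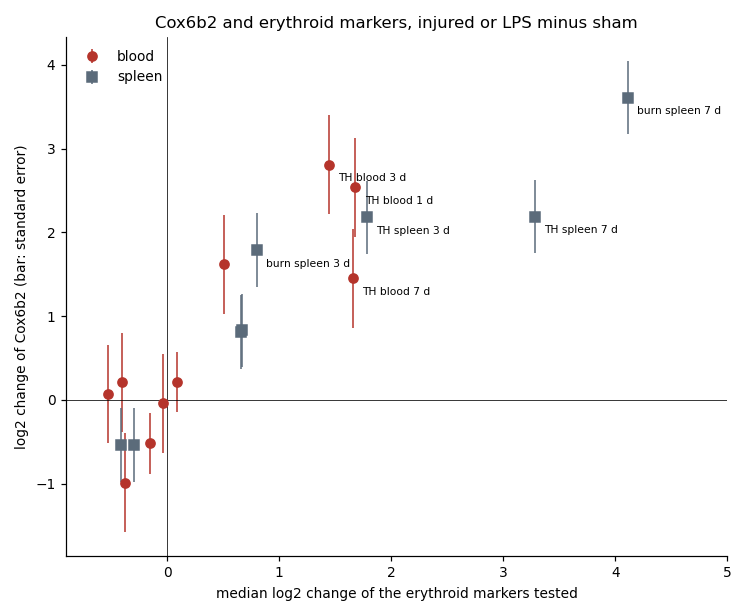
Log2 change of Cox6b2 (vertical, with SE) against the median log2 change of the tested erythroid markers (horizontal) in each comparison. Burn spleen at 7 day stands at 3.61 and 4.11, and burn spleen at 3 day at 1.79 and 0.80.

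Whether the effects of injury differed was tested with moderated F tests in limma over the 4 times. All of these tests include groups with dim arrays, except that of the times in burn blood. Burn and trauma-hemorrhage differed in blood for 20 of 78 members, where 19.4% of all genes did, with Cox6a1 (adjusted p = 0.000714), Ndufa3 (0.00162), Cox7a2 (0.00267) and Atp5b (0.0029) first by p. In spleen they differed for 7 of 76 members, where 19.5% of all genes did, with Sdha (2.66e-09), Ndufs5 (0.0123), Sdhc (0.0149) and Ndufa9 (0.0178) first. The effect differed between times for 22 members in trauma-hemorrhage blood, where 9.2% of all genes did, with Cox4i1 (0.000799), Atp5b (0.00148), Atp5j (0.00185) and Atp5k (0.00248) first. It differed for 5 in burn blood (14% of all genes), led by Sdha (1.12e-08), Ndufb3 (0.00128), Cox8a (0.0276) and Ndufs3 (0.0403). In burn spleen it differed for 32 (44.7% of all genes), led by Sdha (1.39e-12), Ndufb2 (1.34e-07), Cox6b2 (2.5e-06) and Ndufa9 (6.18e-06), and in trauma-hemorrhage spleen for 3 (8.3% of all genes), Cox6b2 (0.00213), Ndufa4 (0.00476) and Uqcrc1 (0.035). In 17 other settings, the call of Cox6b2 was lost in 3, that of Ndufa4 in 4 and that of Uqcrc1 in 8, and the count was 0, 1, 7 and 1 without replicates 1, 2, 3 and 4. The same 4 omissions gave 4, 6, 25 and 9 for the times in trauma-hemorrhage blood, 13, 14, 23 and 47 in burn spleen and 2, 2, 3 and 6 in burn blood. For burn against trauma-hemorrhage they gave 4, 11, 17 and 6 in blood and 1, 1, 5 and 9 in spleen.

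The effects in blood and in spleen differed for 21 of 79 members after trauma-hemorrhage, where 13.4% of all genes did, with Cox7a2 (adjusted p = 0.00017), Cox6a1 (0.00119), Cox6c (0.0022) and Ndufa3 (0.00268) first. After burn they differed for 2 members, where 11.2% of all genes did, namely Uqcr11 (0.0305) and Cox8a (0.0435). Omitting replicates 1, 2, 3 and 4 gave 7, 7, 27 and 8 after trauma-hemorrhage and 0, 0, 0 and 7 after burn. In the sham mice themselves, 49 of 79 members were lower in blood than in spleen and 6 were higher, where 41.9% of all genes were lower and 13.6% higher, with a median log2 difference of -0.25 for blood minus spleen. The higher ones were Cox6b2 (1.66), Cox5a (0.54), Ndufa1 (0.47), Atp5l (0.28), Cox8a (0.18) and Cox7a2 (0.16), and the lowest were Cox7b2 (-0.97), Ndufc1 (-0.76), Atp5g1 (-0.74), Ndufa5 (-0.72) and Cox6a2 (-0.67). Over 32 sham arrays each, Ndufab1 had a lowest, median and highest signal of 733.5, 1120 and 1670 in blood and of 735.9, 1678 and 2326 in spleen. Blood and spleen arrays were hybridized on different days, so tissue and day cannot be told apart in this difference. The tests between tissues treated all arrays as independent, and whether blood and spleen came from the same mice was not checked.

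After LPS 1 member was called. Uqcrb, the ubiquinone-binding protein of complex III, had 1355, 1346, 1298 and 1423 at 2 hr after LPS, against 1835, 1595, 1742 and 1790 in sham blood, a fall of 0.35 ± 0.09 on the log2 scale (1.28-fold lower, limma adjusted p = 0.0487) without overlap. The Gapdh 3' to 5' ratio was 1.4 to 1.54 after LPS and 1.62 to 2.01 in sham blood, also without overlap, and the call was lost in 14 of 17 other settings, with adjusted p of 0.499 with this ratio and 0.143 with the control level as a covariate. No member rose at 2 hr, where 1.49% of all genes rose and 0.349% fell, and 10 members had an unadjusted p under 0.05. At 1 day no member was called and no gene of the 11753 tested was either (0% in each direction), with 1 member at an unadjusted p under 0.05. The effect at 1 day minus that at 2 hr differed for no member, where it was higher for 0.0511% and lower for 0.179% of all genes. The medians of the members were -0.10 at 2 hr and -0.04 at 1 day.

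Where a called gene had further probe sets, most moved the same way. In blood after trauma-hemorrhage these were 13 of 14 at 1 day (not that of Ndufab1) and 3 of 3 at 7 day. At 3 day in that blood they were 26 of 28 (not those of Cox8a and Ndufb8). In blood at 1 day after burn they were 14 of 15 (not that of Sdha). In spleen after burn they were 2 of 3 at 2 hr (not that of Sdha) and 8 of 10 at 7 day (not those of Atp5g1 and Ndufb2). At 1 day in that spleen they were 24 of 31 (not those of Ndufa12, Ndufa3, Ndufb2, Sdha and Uqcrq). In spleen after trauma-hemorrhage they were 7 of 9 at 3 day and 4 of 5 at 7 day, with Ndufab1 opposed at both times. At 2 hr after LPS it was 1 of 1.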

How the data were processed

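Leukocyte and splenocyte RNA was purified on RNeasy columns and amplified and biotin-labelled with a NuGEN Ovation kit, per the labels' protocols. The authors deposited linear intensity values, computed by MAS5 (GCOS 1.4, per the submitters' processing notes). Their mean, with 2% trimmed at each end, is 500.0 on the burn and trauma-hemorrhage arrays and 121 to 141 on the LPS arrays, whose scaling the labels do not state, so the LPS arrays were fitted apart. An array's median signal was 53.08 to 223 for injury blood, 57.82 to 309 for spleen and 23.57 to 29.39 for the LPS arm.

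Of 45101 probe sets 64 were controls, 34945 carried 1 gene symbol, 932 several and 9160 none. Each gene was represented by its probe set with the highest mean, preferring sets not marked as cross-hybridizing. For Uqcrq, Ndufa12 and Cox7c this chose a set with a mean log2(value + 32) of 6.86, 5.95 and 6.06. Their brightest sets, at 9.50, 10.64 and 8.97, were marked as cross-hybridizing and set aside, so the low signals describe the chosen sets. Tested were 14656 genes in blood, 13471 in spleen, 11753 in the LPS arm and 15229 in both tissues together, as log2(value + 32) in limma 3.58.1 (R 4.3.3) with trended variance and Benjamini-Hochberg adjustment at 0.05. Fits held all arrays of a tissue or arm. The members, gene lists, tests and the rule for naming genes were chosen with earlier results of these data known. Named were the 3 largest rises and falls among called members of a comparison, the 4 smallest p of each difference test and a fixed set of isoform and catalytic subunits, and where others are listed they complete a count. Of the mitochondrially encoded subunits only ND5 matched the array's symbols, and it was kept outside the members. The lists of related genes were assembly factors, biogenesis regulators, carriers and transporters, the citric acid cycle and both kinds of ribosomal proteins, and markers of blood cell types.

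In none of the 18 comparisons did every same-numbered pair of a group and its sham deviate together with a correlation over 0.1 (single pairs -0.46 to 0.52), so the numbers were not taken as pairs. No pair of arrays within a group held the same values, with a highest correlation of 0.987. Pairs from different groups were not compared in this way. Alternatives were quantile normalization, pseudocounts of 1 and 100, testing without the filter, averaging a gene's probe sets, a replicate or hybridization-day block, each day alone, the control level (geometric mean of BioB and BioC) or the Gapdh 3' to 5' ratio as a covariate, leaving out dim arrays, a fit on the compared groups alone and leaving out each replicate. The procedure was tested on simulated data. Promoter sequences came from RefSeq.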

Additional observations from a re-analysis of the deposited data

Results flagged for a closer look

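Single arrays stood apart from the other 3 of their group in 6 of the 98 groups of values examined, where the gap to the nearest array took more of the group's range than Dixon's 95% critical value. Chance gives about 1 such group in 20. Ndufb3 in sham blood at 1 day in the burn model had a gap of 0.873 of the range, with an array at 680 beside 1127 to 1192. Sdhc in spleen at 1 day after burn had a gap of 0.960, with an array at 741 beside 454.4 to 465.8, and that array was the only one of the 4 that was not dim. Uqcrc1 in spleen at 3 day after trauma-hemorrhage had a gap of 0.844, with an array at 1786 beside 653 to 830.2. The mean log2 level of the members had a gap of 0.859 in spleen at 1 day after trauma-hemorrhage, of 0.958 in sham blood at 7 day in the burn model, and of 0.853 in sham spleen at 1 day in the burn model, where an array stood at 11.183 beside 10.904 to 10.945.

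Effects differed between groups, by limma's moderated F test of the difference, for 20 of 78 members between burn and trauma-hemorrhage in blood. Of all genes 19.4% did, and in spleen 7 of 76 members and 19.5% of all genes did. Between times they differed for 5 of 78 members in burn blood (14% of all genes) and 22 of 78 in trauma-hemorrhage blood (9.2% of all genes). For spleen the numbers were 32 of 76 after burn (44.7% of all genes) and 3 of 76 after trauma-hemorrhage (8.3% of all genes). Between blood and spleen they differed for 2 of 79 members after burn (11.2% of all genes) and 21 of 79 after trauma-hemorrhage (13.4% of all genes).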

How the results depend on the processing

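Covered here are every called member of the comparisons with sham and, for the difference tests and the sham difference, the members named by the rule, 178 values in all. The F tests among them have no direction, so for these only the side of the threshold was compared. Under the other settings 2695 values kept their direction and their side of the threshold, 777 kept their direction and missed the threshold, and 17 changed sign: Atp5a1 in trauma-hemorrhage blood at 3 day with quantile normalization (-0.00), Ndufb5 there without dim arrays (0.13), Atp5b (-0.14) and Atp5h (-0.02) in trauma-hemorrhage blood at 7 day with the control level as a covariate, Ndufa1 (0.40), Ndufb5 (0.32), Ndufv1 (0.32), Ndufs7 (0.29), Cox6b1 (0.10), Atp5d (0.09), Ndufc2 (0.09), Cox6a1 (0.08), Ndufb10 (0.08), Atp5e (0.07) and Atp5pb (0.00) in burn spleen at 1 day without dim arrays, Ndufa12 there with the mean of all probe sets (-0.04), and Ndufab1 in trauma-hemorrhage spleen at 7 day within the second hybridization day (-0.03). The cause of each change was not tested.

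Counts of called members that moved by more than 1.5 times were as follows. In burn blood at 2 hr the count of 0 became 1 with quantile normalization, 2 without dim arrays and 1 with the compared groups alone, at 1 day the 11 became 5 within either day, and at 7 day the 0 became 1 with the Gapdh ratio or the groups alone. In trauma-hemorrhage blood at 1 day the 16 became 4 and 1 within the days, 9 with the control level and 10 alone, at 3 day the 33 became 21 with quantile normalization, 19 and 0 within the days, 0 without dim arrays and 2 alone, and at 7 day the 9 became 4 with quantile normalization, 0 and 3 within the days, 0 with the control level, 1 with the Gapdh ratio and 0 alone. In burn spleen at 2 hr the 2 became 1 without the filter, 4 with quantile normalization, 1 with the mean of all probe sets, 0 within either day, 0 with the control level, 1 with the Gapdh ratio, 0 without dim arrays and 0 alone. At 1 day the 30 became 6 within the second day, 17 with the control level and 8 without dim arrays, at 3 day the 1 became 0 with a pseudocount of 1, with quantile normalization and within the second day, and at 7 day the 11 became 17 and 1 within the days, 17 with the control level, 21 without dim arrays and 31 alone. In trauma-hemorrhage spleen at 2 hr the 0 became 1 without dim arrays or alone, at 3 day the 12 became 0 within the second day and 21 without dim arrays, and at 7 day the 3 became 1 without the filter, 7 with the mean of all probe sets, 42 and 0 within the days, 5 with the Gapdh ratio, 5 without dim arrays and 1 alone. At 2 hr after LPS the 1 became 0 with a pseudocount of 1, without the filter, with the mean of all probe sets, with the replicate block, with either covariate and alone.

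Among the difference tests, burn against trauma-hemorrhage in blood (20) gave 6 and 1 within the days and 9 with the control level, and in spleen (7) 13 and 1 within the days, 2 with the control level and 3 without dim arrays. Between times, burn blood (5) gave 2 and 1 within the days, 8 without dim arrays and 12 alone, trauma-hemorrhage blood (22) 12 with quantile normalization, 0 within the second day and 0 alone, burn spleen (32) 1 within the second day, 20 with the control level and 15 without dim arrays, and trauma-hemorrhage spleen (3) 5 with the replicate block, 11 and 0 within the days, 6 with the control level and 6 without dim arrays. Blood against spleen after burn (2) gave 1 and 4 with pseudocounts of 1 and 100, 6 with quantile normalization, 1 and 0 within the days, 1 with the control level, 4 without dim arrays and 8 alone, and after trauma-hemorrhage (21) 5 with quantile normalization, 0 within the second day, 12 with the control level and 9 alone. The sham difference (55) gave 30 within the second day. The replicate block, for which the check of the numbers gave no pairing, changed no other count by over 1.5 times.

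With each replicate left out in turn, the counts in burn blood were 0 to 1 at 2 hr, 9 to 11 at 1 day, and 0 at 3 and 7 day. In trauma-hemorrhage blood they were 0 at 2 hr, 8 to 17 at 1 day (8 without sham replicate 2), 16 to 36 at 3 day (16 without injured replicate 4) and 1 to 14 at 7 day (14 without injured replicate 2, 1 without injured replicate 3, 4 without sham replicate 1). In burn spleen they were 0 to 5 at 2 hr, with 1, 0 and 1 on leaving out injured replicates 1, 2 and 4, and 4, 0 and 5 on leaving out sham replicates 1, 3 and 4, then 22 to 38 at 1 day, 0 to 1 at 3 day (0 without injured replicates 1, 2 or 4 or sham replicates 1 or 4), and 5 to 15 at 7 day, with 7, 6 and 5 on leaving out injured replicates 1, 2 and 3, and 6 and 7 on leaving out sham replicates 2 and 4. In trauma-hemorrhage spleen they were 0 at 2 hr and 1 day, 5 to 11 at 3 day, with 7 and 5 on leaving out injured replicates 2 and 4, and 7 and 6 on leaving out sham replicates 2 and 3, and 1 to 13 at 7 day, with 13 without injured replicate 3, 11 without sham replicate 4 and 1 without any other. At 2 hr after LPS they were 0 to 1, with 1 only without sham replicate 2, and at 1 day and for the difference of times 0. The ranges were 4 to 17 and 1 to 9 for burn against trauma-hemorrhage in blood and in spleen, 2 to 6, 4 to 25, 13 to 47 and 0 to 7 for the times in burn blood, trauma-hemorrhage blood, burn spleen and trauma-hemorrhage spleen, 0 to 7 and 7 to 27 for the tissues after burn and after trauma-hemorrhage, and 41 to 55 for the sham difference.

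Not run were the day settings for LPS, for which no day was given, the sham difference with the day as a block, which could not be estimated, and leaving out dim arrays where no injured array remained (trauma-hemorrhage blood at 7 day and its difference tests) or none was dim (LPS). Signals of Cox7b2 (1.009 to 751.7), Ndufa12 and, in sham spleen, Cox6b2 and Uqcrq lay near or below the pseudocount on some arrays, so their folds are uncertain.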
